A study of Mus musculus with 14 samples.

Results

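The genes described here encode factors that hold RNA polymerase II (Pol II) shortly after the start site of a gene or release it into productive elongation. They are Cdk9, Ccnt1, Ccnt2, Hexim1, Larp7, Nelfa, Nelfb, Nelfcd and Supt5. They were chosen by name as known pausing and elongation factors, by a rule that uses none of their values. Earlier results of these data were known when the choice was made. They are 9 of the 54446 gene identifiers in the files. Each name had 1 identifier, and all 9 passed the filter that left 18232 genes for testing (an average of 1 TPM or more over the libraries on the spike-in scale explained below).

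Paused Pol II is held near the promoter by the negative elongation factor NELF, which the Nelfa, Nelfb and Nelfcd products form together with Nelfe, and by DSIF, a dimer of the Supt5 and Supt4a products. The kinase P-TEFb, formed by CDK9 and cyclin T1 or T2, phosphorylates NELF, DSIF and the Pol II tail; NELF then leaves and DSIF travels on with the polymerase as a positive elongation factor. A large share of P-TEFb is kept inactive in the 7SK particle, in which LARP7 protects the small nuclear RNA Rn7sk and HEXIM1 inhibits the kinase. In mouse ES cells many genes carry a paused polymerase, and mTOR signalling is among the pathways that set how much RNA a cell makes.

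RNA-seq was carried out on E14 mouse ES cells, a line grown here on gelatin without feeders in serum and LIF. Wild-type (WT) cells were analysed untreated (0 h) and after 24, 72 and 144 h of mTORi (the mTOR inhibitor INK128), which places them in a dormant state resembling embryonic diapause. Tet1/2 DKO cells, in which Cas9 was used to delete both genes in E14 cells followed by sorting of single cells into clones, were analysed at 0, 24 and 72 h. Each of the 7 groups had 2 libraries, made from total RNA of a fixed number of sorted cells after removal of ribosomal RNA, 14 in all. In bulk RNA a lower level in each cell cannot be told apart from fewer cells that carry the transcript.

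The deposited unit is TPM, a transcript abundance per length in which each library sums to 1000000, so a fall of all transcripts together is not visible in it. Each library was therefore also multiplied by a single spike-in factor, recovered from the study's own table normalized to ERCC RNAs, and the members are described on both scales. The mean factor relative to the untreated cells of the same genotype was 77.9% after 24 h, 74.4% after 72 h and 49.0% after 144 h in WT, and 69.2% after 24 h and 82.1% after 72 h in DKO. The 2 factors of a group differed most in DKO after 24 h (2.24 and 1.36) and DKO after 72 h (2.53 and 1.73). An error in a factor moves all 9 members of that library together and does not touch a ratio between them. Whether the ERCC RNAs were added per cell number or per amount of RNA is not given in the sources used here, so whether this scale measures RNA per cell is not known. Each factor equals 76 divided by a whole number between 27 and 76.

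The labels were checked against marker genes. The 7 ES cell markers summed to between 2277 and 2963 TPM in all 14 libraries. In WT they were at between 2525 and 2565 TPM at 0 h and between 2883 and 2963 TPM after 24 h. Still in WT, they were at between 2513 and 2620 TPM after 72 h and between 2804.5 and 2879 TPM after 144 h. Of the 5 feeder fibroblast markers, Col1a1, Col1a2, Col3a1 and Postn were under 1 TPM in every library. The sum of the 5, of which the other is Thy1, was between 5.71 and 8.23 TPM in WT at 0 h and between 1.28 and 2.83 TPM after 24 h, and in DKO between 10.5 and 17.7 TPM at 0 h and between 2.68 and 7.39 TPM after 24 h. The 5 primitive endoderm markers summed to between 92.2 and 171 TPM in WT after 24 h against between 11.3 and 39.0 TPM in WT at 0 h. Tet2 lay between 96.0 and 143 TPM in the 8 WT libraries and between 15.9 and 22.2 TPM in the 6 DKO libraries. Tet1 did not separate the genotypes (190.9 to 349 TPM in WT and 147 to 248 TPM in DKO), and its gene value also covers exons outside the deleted stretch. Depth is not known from TPM, so no counting error can be given.

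In the coordinates of the files (mm10), Cdk9 lies on the minus strand at chr2:32705784-32713076, Ccnt1 on the minus strand at chr15:98538689-98570923 and Ccnt2 on the plus strand at chr1:127774164-127808061. Hexim1 lies on the plus strand at chr11:103116231-103119725 and Larp7 on the minus strand at chr3:127536714-127553349. Nelfa lies at chr5:33897916-33936413 and Nelfb at chr2:25199712-25211489, both on the minus strand, while Nelfcd lies on the plus strand at chr2:174415804-174427502. Supt5 lies on the minus strand at chr7:28314891-28338746. Larp7 spans the 5 genes of the miR-302/367 cluster on the opposite strand, which were at 1.66 TPM or less in every library. Nelfcd shares 10 bp with Ctsz and Nelfa shares 60 bp with Nsd2, both on the opposite strand, and Ccnt1 spans 9330020H09Rik on the opposite strand (a mean of 1.39 TPM). The strand setting of the counting is not given in the sources used here, so reads in these overlaps cannot be assigned with certainty.

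Promoter sequences (250 bases before to 50 after the start, RefSeq, GRCm38.p6) were found for 8 of the 9 members. The RefSeq start lay 3187 bp inside the gene span given above for Ccnt1, 292 bp for Cdk9 and 142 bp for Nelfa. It lay 94 bp inside for Hexim1, 27 bp for Supt5 and 0 bp for Ccnt2, Larp7 and Nelfb. The 3 whose transcripts departed from the rest are shown, on the strand of the gene, with the GC box (GGGCGG or its reverse complement CCGCCC), a motif bound by SP1 and its relatives, in capitals. The windows are chr7:28338670-28338969 (minus strand) for Supt5, chr11:103116075-103116374 (plus strand) for Hexim1 and chr3:127553300-127553599 (minus strand) for Larp7.
Supt5: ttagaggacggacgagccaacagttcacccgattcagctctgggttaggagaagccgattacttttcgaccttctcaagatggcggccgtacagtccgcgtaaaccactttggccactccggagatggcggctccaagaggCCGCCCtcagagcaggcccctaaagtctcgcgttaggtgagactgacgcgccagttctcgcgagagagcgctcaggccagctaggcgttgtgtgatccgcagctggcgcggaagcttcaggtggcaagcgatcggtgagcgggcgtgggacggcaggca
Hexim1: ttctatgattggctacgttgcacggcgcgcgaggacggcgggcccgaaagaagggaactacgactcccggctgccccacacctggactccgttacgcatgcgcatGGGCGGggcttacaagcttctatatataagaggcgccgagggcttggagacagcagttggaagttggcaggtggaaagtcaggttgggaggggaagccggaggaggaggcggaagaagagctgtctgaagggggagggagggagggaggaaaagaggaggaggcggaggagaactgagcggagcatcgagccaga
Larp7: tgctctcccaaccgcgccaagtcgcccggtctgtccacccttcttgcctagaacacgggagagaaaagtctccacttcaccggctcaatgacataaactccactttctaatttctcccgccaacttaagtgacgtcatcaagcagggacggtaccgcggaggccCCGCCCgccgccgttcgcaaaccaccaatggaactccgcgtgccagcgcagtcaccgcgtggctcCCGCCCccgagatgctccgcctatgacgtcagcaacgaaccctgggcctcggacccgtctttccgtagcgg

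All 8 promoters hold at least 1 GC box, a motif that 35.7% of the 32851 promoters in the table hold on either strand. Their GC content was between 53% and 78.3%, against a median of 52.7% over all promoters. The E-box CACGTG, the core of the sites of MYC and TFE3, was in none of the 8 and in 7.15% of all promoters, and the longer CLEAR motif GTCACGTG was in none of the 8 and in 2.25% of all. The ETS motif CCGGAA was in the promoters of Cdk9, Ccnt1 and Ccnt2 (14.9% of all), the YY1 motif AAGATGGC in those of Nelfa and Supt5 (2.75% of all) and TATAAA in that of Nelfb (13.6% of all). All motifs were searched on both strands. The promoters of Supt5, Hexim1 and Larp7 thus share the GC box and none of the other motifs searched, and the GC box is also in the 5 promoters of the other members. A match describes these letters only, and not whether a factor binds there.

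In untreated WT cells all 9 genes were expressed at moderate to high levels. In deposited TPM, which are per transcript length, Supt5 was the highest (103 and 101 TPM), followed by Cdk9 (78.7 and 66.7 TPM) and Larp7 (77.7 and 66.0 TPM). Ccnt2 (50.6 and 63.4 TPM), Nelfa (49.8 and 59.2 TPM), Ccnt1 (49.1 and 48.4 TPM) and Nelfcd (45.1 and 37.1 TPM) came next, and Hexim1 (32.1 and 34.4 TPM) and Nelfb (33.1 and 32.7 TPM) were the lowest. Cdk9 and Larp7 overlapped each other, as did Ccnt2 and Nelfa, and Hexim1 and Nelfb, so their order is not resolved. The other neighbours in this order did not overlap.

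On the spike-in scale, transcripts of 8 of the 9 factors were lower after 144 h of mTORi in WT cells. In limma, 0 of the 9 members passed the test in WT after 24 h against 0 h (8.73% of all genes were called lower and 1.25% higher), and 1 member, Hexim1, had an unadjusted p under 0.05. After 72 h 1 member, Larp7, was lower (7.6% of all genes lower, 0.697% higher), and after 144 h 8 of 9 were lower (50.5% lower, 0.461% higher), the exception being Ccnt2. The median log2 difference of the 9 members at the 3 times was −0.34, −0.45 and −0.92, and that of all genes tested was −0.33, −0.33 and −0.83, with 6, 7 and 8 members below it. In deposited TPM the members below the all-gene median numbered 3, 6 and 3, so a position below it after 144 h depends on the scale. All 9 members were lower in both 144 h libraries than in both 0 h libraries, which held for 82.1% of all genes. With a replicate block within each genotype, the members called lower were Hexim1 after 24 h (25.7% of all genes), Hexim1 and Larp7 after 72 h (25.4%), and all 9 after 144 h (66.3%). Without the block, the 144 h count was 4 when 0 h replicate 1 or 2 was left out (6355 and 4363 of the 18232 genes tested called lower), and 2, Hexim1 and Larp7, when 144 h replicate 2 was left out (3911 genes). The 72 h count was 0 without 72 h replicate 2 (58 genes called lower) or 0 h replicate 1 or 2 (424 and 161 genes).

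**Figure D1:**
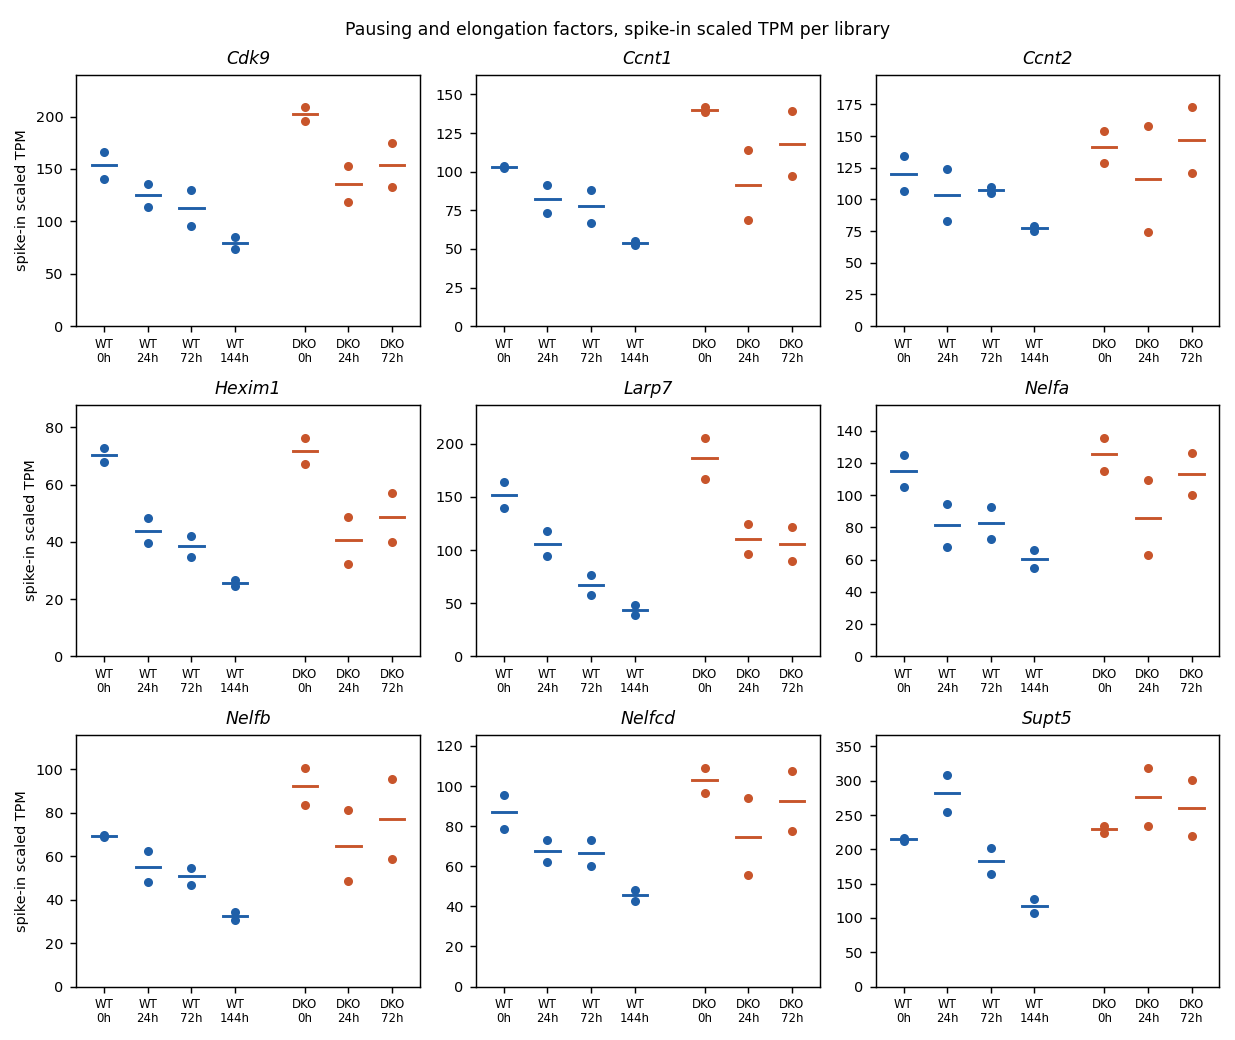
Spike-in scaled TPM (vertical axes, starting at 0) of the 9 members in the 7 groups (horizontal axes, genotype and hours of mTORi), with points for the 2 libraries of a group and a bar for their mean, WT in blue and DKO in orange. Most WT panels step down to 144 h, where Cdk9 is at 84.7 and 73.6, while Supt5 is highest after 24 h, at 255 and 308.

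On the deposited scale, where the fall common to all genes is removed, the members separated into 3 patterns. Hexim1 and Larp7, which encode proteins of the 7SK particle, were lower than in untreated cells. Supt5 was higher early, and none of the P-TEFb and NELF genes was called at any time without the block. Mepce, which is not a member and encodes the capping enzyme of 7SK, was called higher in WT after 144 h, as given below. In limma on deposited TPM, Hexim1 was called lower and Supt5 higher in WT after 24 h (14.1% of all genes were lower and 15.8% higher). Hexim1 and Larp7 were called lower after 72 h (11.4% of all genes lower, 12.6% higher) and after 144 h (11.7% lower, 15.6% higher), with 0 members higher at either time. On this scale the all-gene median at the 3 times was −0.01, 0.04 and 0.05, and the median of the members was 0.03, −0.03 and 0.09.

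**Figure D2:**
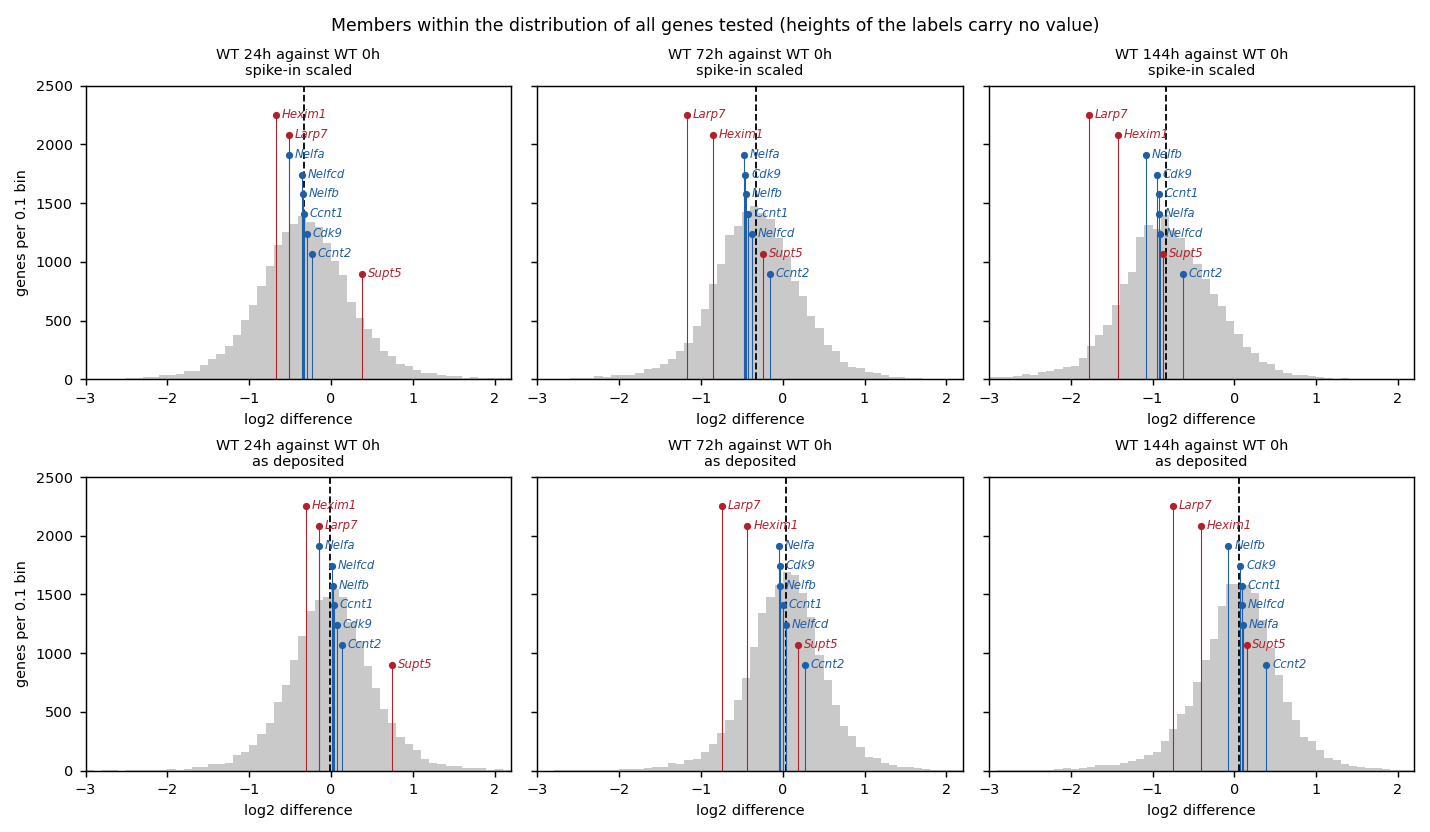
Number of genes per bin of 0.1 (vertical axes) of the log2 difference from WT 0 h (horizontal axes) at 24, 72 and 144 h, spike-in scaled (top) and as deposited (bottom), with the all-gene median dashed, the 9 members as labelled lines, and Hexim1, Larp7 and Supt5 in red. After 144 h Larp7 (−1.77 spike-in scaled, −0.75 as deposited) and Hexim1 (−1.42 and −0.41) lie left of the other members, and Supt5 lies to the right after 24 h only.

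Cdk9, the kinase of P-TEFb, had 166 and 141 spike-in scaled TPM in WT at 0 h, 114 and 136 after 24 h, 130 and 95.6 after 72 h, and 84.7 and 73.6 after 144 h. Both libraries of every mTORi time were below both untreated libraries, and the 144 h pair was lowest. The log2 difference after 144 h was −0.95 ± 0.27 (SE, n = 2 per group, limma adjusted p = 0.0079), and Cdk9 was at percentile 41.2 of all genes, counted from the lowest. In deposited TPM Cdk9 was at 79.1 and 73.6 after 144 h against 78.7 and 66.7 at 0 h. These overlap, and the log2 difference on that scale was 0.07, with a 95% interval from −0.27 to 0.42. Ccnt1, which encodes the main cyclin partner of CDK9, went from 104 and 102 spike-in scaled TPM at 0 h to 54.9 and 52.6 after 144 h, a log2 difference of −0.92 ± 0.29 (limma adjusted p = 0.014). As deposited it lay between 44.6 and 58.4 TPM in all 14 libraries, and its log2 difference after 144 h was 0.09 (95% interval −0.13 to 0.31).

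Ccnt2, which encodes the alternative cyclin, had the smallest difference of the 3 P-TEFb genes after 144 h in WT on the spike-in scale and the largest, in the other direction, as deposited. It had 107 and 134 spike-in scaled TPM at 0 h and 75.3 and 79.0 after 144 h, and the log2 difference of −0.63 ± 0.32 did not pass the test (limma adjusted p = 0.11). It passed with a replicate block within each genotype (limma adjusted p = 0.020) and when only the WT 0 h and 144 h libraries were fitted (limma adjusted p = 0.0066). As deposited, Ccnt2 was at 50.6 and 63.4 TPM at 0 h, 66.3 and 70.5 TPM after 72 h, and 70.3 and 79.0 TPM after 144 h. The 72 h and 144 h libraries were above both untreated libraries. The log2 difference after 144 h, 0.39 ± 0.14, did not pass (limma adjusted p = 0.058) without the block and passed with it (limma adjusted p = 0.018, 19.9% of all genes called higher).

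Hexim1, which encodes the inhibitor of P-TEFb, had 67.8 and 72.7 spike-in scaled TPM in WT at 0 h, 39.5 and 48.4 after 24 h, 42.2 and 34.8 after 72 h, and 26.7 and 24.7 after 144 h. As deposited it had 32.1 and 34.4 TPM at 0 h, 27.5 and 26.1 TPM after 24 h, 25.5 and 23.4 TPM after 72 h, and 24.9 and 24.7 TPM after 144 h. On both scales all 6 treated WT libraries were below both untreated ones, with most of the difference on the deposited scale already present after 24 h. Spike-in scaled, the log2 difference was −0.67 ± 0.29 after 24 h (limma adjusted p = 0.14, and 0.023 with the block), −0.86 ± 0.29 after 72 h (limma adjusted p = 0.070, 0.0063 with the block, and 0.0087 with only these 2 groups fitted) and −1.42 ± 0.29 after 144 h (limma adjusted p = 0.0011). As deposited it was −0.30 ± 0.09 after 24 h (limma adjusted p = 0.025), −0.43 ± 0.09 after 72 h (limma adjusted p = 0.0060) and −0.41 ± 0.09 after 144 h (limma adjusted p = 0.0070). The call after 24 h as deposited was lost when WT 0 h replicate 2 or either 24 h library was left out (limma adjusted p from 0.060 to 0.13), and those after 72 h and 144 h when replicate 2 of that time was left out (limma adjusted p = 0.055 and 0.051).

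Larp7, which encodes the protein that stabilizes the 7SK RNA, had the most negative difference of the members in WT after 72 h and 144 h on both scales. It had 164 and 139 spike-in scaled TPM in WT at 0 h, 94.6 and 118 after 24 h, 76.8 and 57.6 after 72 h, and 48.4 and 39.2 after 144 h. The 4 libraries of 72 h and 144 h were all below the 4 earlier ones, without overlap between any consecutive times. The log2 difference was −0.52 ± 0.28 after 24 h (limma adjusted p = 0.24), −1.17 ± 0.28 after 72 h (limma adjusted p = 0.015) and −1.77 ± 0.28 after 144 h (limma adjusted p = 0.00018). Larp7 was at percentile 5.78 of all genes after 72 h and 5.11 after 144 h, counted from the lowest. The 72 h call held in 1 of the 4 fits without a library (limma adjusted p up to 0.25) and the 144 h call in 4 of 4. As deposited, Larp7 was at 77.7 and 66.0 TPM at 0 h, 66.0 and 63.5 TPM after 24 h, 46.5 and 38.7 TPM after 72 h, and 45.2 and 39.2 TPM after 144 h. On that scale the 72 h and 144 h libraries overlapped each other and lay below all earlier ones. The log2 difference was −0.74 ± 0.18 after 72 h (limma adjusted p = 0.014) and −0.75 ± 0.18 after 144 h (limma adjusted p = 0.012). Without WT 0 h replicate 1 the adjusted p was 0.090 and 0.080 in limma, and without replicate 2 of the later time it was 0.11 and 0.092.

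The 3 NELF genes were all called lower after 144 h in WT spike-in scaled, as were 50.5% of all genes. None was called as deposited, where 11.7% of all genes were called lower and 15.6% higher. On the spike-in scale Nelfb, which encodes a subunit that bridges others of the complex, had 69.8 and 69.0 TPM in WT at 0 h, 48.0 and 62.2 after 24 h, 54.6 and 46.9 after 72 h, and 34.1 and 30.6 after 144 h. The later libraries were all below the untreated ones, and the log2 difference after 144 h was −1.08 ± 0.31 (limma adjusted p = 0.0079). Nelfa, which encodes a subunit that contacts Pol II, went from 105 and 125 to 66.2 and 54.8 (log2 difference −0.92 ± 0.30, limma adjusted p = 0.017, or 0.056 with no filter on low values) and Nelfcd from 95.3 and 78.4 to 48.1 and 42.8 (−0.91 ± 0.29, limma adjusted p = 0.015). As deposited, none of the 3 was called in DKO either (13.3% of all genes lower and 11.6% higher after 24 h, 9.06% and 17.2% after 72 h). Nelfb lay between 30.6 and 37.6 TPM and Nelfcd between 37.1 and 45.1 TPM over all 14 libraries. Their coefficients of variation over the libraries, 5.91% and 5.97%, were at percentiles 0.741 and 0.798 of the 8768 genes that averaged 10 TPM or more, whose median was 17.8%. Ccnt1 was at percentile 1.56, and Larp7 and Supt5 were at percentiles 74.2 and 71.8.

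**Figure D3:**
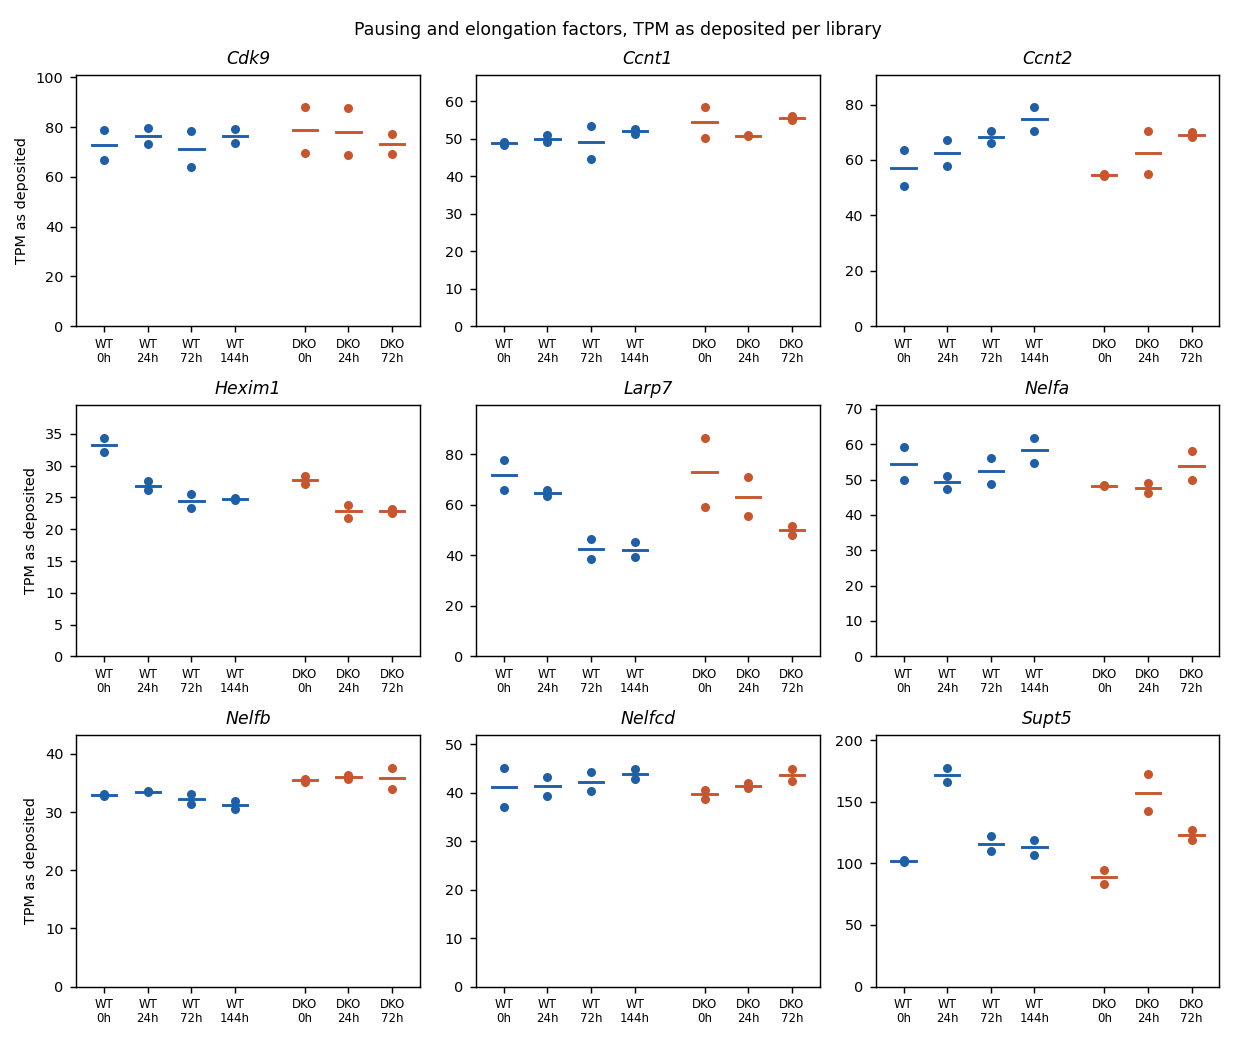
Deposited TPM (vertical axes, starting at 0) of the 9 members in the 7 groups (horizontal axes, genotype and hours of mTORi), with points for the 2 libraries of a group and a bar for their mean, WT in blue and DKO in orange. Nelfb (30.6 to 37.6 TPM over all libraries) and Ccnt1 (44.6 to 58.4 TPM) run level, Hexim1 and Larp7 step down, and Supt5 peaks after 24 h in both genotypes.

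Supt5, which encodes the large subunit of DSIF, was the member called higher on the deposited scale, in WT after 24 h and at neither later time. As deposited it had 103 and 101 TPM in WT at 0 h, 178 and 166 TPM after 24 h, 122 and 110 TPM after 72 h, and 119 and 107 TPM after 144 h. Both 24 h libraries were above all 6 other WT libraries. The log2 difference after 24 h was 0.75 ± 0.11 (limma adjusted p = 0.00083), and the call held in each of the 4 fits that left out a library of these groups (limma adjusted p from 0.0055 to 0.0087). After 72 h and 144 h it was 0.18 (95% interval −0.06 to 0.43) and 0.15 (−0.09 to 0.39), and neither passed. In comparisons added after these values had been seen, Supt5 fell by 0.57 ± 0.11 from 24 h to 72 h (limma adjusted p = 0.012) and by 0.60 ± 0.11 from 24 h to 144 h (limma adjusted p = 0.0039), on the log2 scale of deposited TPM. In deposited TPM 5.7% of all genes were called lower and 5.33% higher from 24 h to 72 h, and 10.1% lower and 12.6% higher from 24 h to 144 h, where Larp7 was lower too (−0.61, limma adjusted p = 0.034). With the block Larp7 was also called lower from 24 h to 72 h (−0.60, limma adjusted p = 0.0071, 8.87% of all genes lower).

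Spike-in scaled, Supt5 had 217 and 213 TPM in WT at 0 h, 255 and 308 after 24 h, 202 and 164 after 72 h, and 128 and 107 after 144 h. The 24 h pair was the highest here too, but the difference from 0 h of 0.38 ± 0.26 did not pass (limma adjusted p = 0.37), and after 144 h Supt5 was lower, at −0.87 ± 0.26 (limma adjusted p = 0.011). From 24 h to 72 h, 0 members were called in limma (0.559% of all genes lower, 0.428% higher), with Supt5 at −0.62 (adjusted p = 0.39) and 2 members, Larp7 and Supt5, at an unadjusted p under 0.05. From 24 h to 144 h these 2 members were called lower (14.7% of all genes lower, 0.9% higher), each at −1.26 (limma adjusted p = 0.0058 for Larp7 and 0.0039 for Supt5), and 7 were with the block (40.5% of all genes lower). After 24 h Supt5 was at percentile 89.5 of all genes on this scale. The sign of the 144 h difference therefore depends on the scale, as it does for Cdk9, Ccnt1, Ccnt2, Nelfa and Nelfcd. The primitive endoderm markers were also highest after 24 h in WT, as given above, and the 4 neuroectoderm markers were lowest then, at between 8.61 and 9.28 TPM against between 16.2 and 20.3 TPM at 0 h (6.43 to 7.70 TPM against 12.5 to 15.5 TPM in DKO). The 4 mesendoderm markers summed in WT to between 3.94 and 4.57 TPM at 0 h and between 4.75 and 5.80 TPM after 24 h (3.71 to 4.31 TPM and 4.51 to 5.19 TPM in DKO). In WT they were at between 5.17 and 5.33 TPM after 72 h and between 7.85 and 8.31 TPM after 144 h. The neuroectoderm markers were at between 12.9 and 13.1 TPM after 72 h and between 14.2 and 15.03 TPM after 144 h in WT. The 5 trophectoderm markers summed to between 25.2 and 48.6 TPM in WT at 0 h, between 14.2 and 17.7 TPM after 72 h and between 21.3 and 22.4 TPM after 144 h. The part of these cell type markers in the values of the members was not tested.

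Ratios between members within a library do not depend on the spike-in factor. Larp7 relative to Cdk9 was 0.988 ± 0.001 in WT at 0 h (mean ± SD, n = 2), 0.847 ± 0.026 after 24 h, 0.597 ± 0.008 after 72 h and 0.552 ± 0.027 after 144 h. The libraries of the 4 times did not overlap. Hexim1 relative to Cdk9 was 0.462 ± 0.076 at 0 h and 0.325 ± 0.014 after 144 h, with both 144 h libraries below both untreated ones. In WT the Larp7 and Hexim1 transcripts were thus lower relative to that of the kinase held by the 7SK particle. In DKO, Larp7 relative to Cdk9 was 0.918 ± 0.095 at 0 h and 0.685 ± 0.019 after 72 h, without overlap, whereas Hexim1 relative to Cdk9 overlapped between these times (0.356 ± 0.048 and 0.314 ± 0.018). Supt5 relative to Nelfb, a pair of pause-inducing factors, was 3.09 ± 0.02 at 0 h, 5.13 ± 0.24 after 24 h, 3.59 ± 0.15 after 72 h and 3.62 ± 0.18 after 144 h. Ccnt2 relative to Ccnt1 was 1.17 ± 0.20 at 0 h and 1.44 ± 0.09 after 144 h, without overlap. These ratios are descriptions with 2 libraries a group and were not tested.

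**Figure D4:**
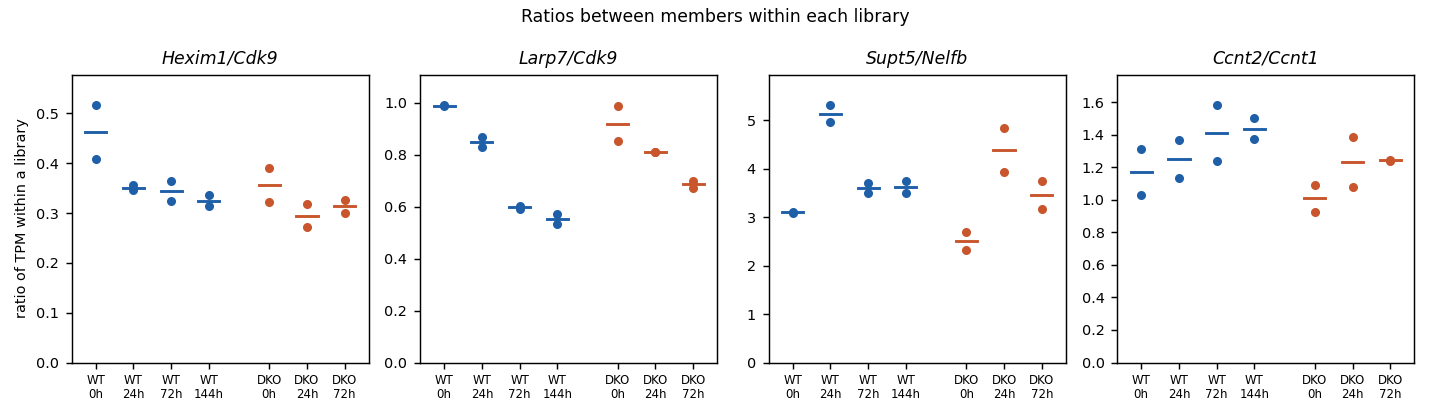
Ratio of the TPM of 2 members within each library (vertical axes, starting at 0) in the 7 groups (horizontal axes, genotype and hours of mTORi), with points for libraries and bars for group means, WT in blue and DKO in orange. Larp7/Cdk9 steps down from 0.988 to 0.552 in WT, and Supt5/Nelfb is highest after 24 h in both genotypes, at 5.13 in WT and 4.38 in DKO.

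In Tet1/2 DKO cells Supt5 was called higher and Hexim1 lower on the deposited scale, after both 24 h and 72 h. Supt5 had 83.1 and 94.5 TPM in DKO at 0 h, 143 and 172 TPM after 24 h, and 119 and 127 TPM after 72 h, and in DKO the 3 times did not overlap. Spike-in scaled it had 234 and 224 TPM at 0 h, 319 and 234 TPM after 24 h, and 302 and 220 TPM after 72 h, and neither the 24 h difference of 0.25 ± 0.26 nor the 72 h difference of 0.17 ± 0.26 passed (limma adjusted p = 0.52 and 0.78). As deposited, the log2 difference from 0 h was 0.82 ± 0.11 after 24 h (limma adjusted p = 0.00071, 11.6% of all genes called higher) and 0.47 ± 0.11 after 72 h (limma adjusted p = 0.012, 17.2% called higher). The call after 72 h was lost without DKO 0 h replicate 1 or DKO 72 h replicate 2 (limma adjusted p = 0.076 and 0.077), and after median-centring, which gave 0.29 (limma adjusted p = 0.17). The primitive endoderm markers summed to between 12.0 and 38.0 TPM in DKO at 0 h, between 27.8 and 66.4 TPM after 24 h and between 22.4 and 32.6 TPM after 72 h, overlapping with 0 h at both times. After 72 h in DKO the mesendoderm markers summed to between 6.43 and 7.10 TPM against between 3.71 and 4.31 TPM at 0 h, the 5 trophectoderm markers to between 15.4 and 17.4 TPM against between 22.4 and 43.0 TPM, and the ES cell markers to between 2277 and 2406 TPM against between 2509 and 2666 TPM. The part of these markers here was not tested either. As deposited, Hexim1 had 27.1 and 28.3 TPM at 0 h, 21.8 and 23.8 TPM after 24 h, and 22.5 and 23.2 TPM after 72 h, with both later pairs below the untreated one. It was called lower after 24 h, at −0.27 ± 0.09 (limma adjusted p = 0.043, 13.3% of all genes called lower), and after 72 h, at −0.27 ± 0.09 (limma adjusted p = 0.044, 9.06% called lower), calls that were lost in 3 of 4 and 4 of 4 fits without a library (limma adjusted p up to 0.20 and 0.18). Larp7 had 59.2 and 86.7 TPM at 0 h, 55.6 and 71.0 TPM after 24 h, and 48.2 and 51.8 TPM after 72 h. Its 72 h difference of −0.51 ± 0.18 did not pass (limma adjusted p = 0.059) without the block and passed with it (limma adjusted p = 0.0067), as did Ccnt2, which was higher by 0.34 on the log2 scale (limma adjusted p = 0.096 without the block and 0.033 with it, 23.5% of all genes called higher). From 24 h to 72 h, 0 members were called in limma on either scale (spike-in scaled 0.0932% of all genes lower and 1.32% higher, as deposited 1.49% lower and 4.47% higher), with Supt5 at −0.35 as deposited (limma adjusted p = 0.087, and 0.020 with the block). Unadjusted, 0 members spike-in scaled and 1 as deposited had a p under 0.05.

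Spike-in scaled, the median log2 difference of the 9 members in DKO cells was −0.58 after 24 h and −0.27 after 72 h, beside all-gene medians of −0.49 and −0.12, with 7 of the 9 below the all-gene median at each time. In deposited TPM 5 were below it after 24 h and 6 after 72 h, with member medians of −0.01 and 0.04 beside 0.01 and 0.14. In limma, Hexim1 was called lower after 24 h (log2 difference −0.84 ± 0.29, adjusted p = 0.048, or 0.38 with only these 2 groups fitted, 18.7% of all genes called lower and 0.505% higher) and 0 members were called after 72 h (2.95% lower and 0.713% higher), where 1 member had an unadjusted p under 0.05. With the block within each genotype, 5 members were called lower after 24 h (38.1% of all genes), namely Cdk9, Ccnt1, Hexim1, Larp7 and Nelfa, and Larp7 after 72 h (limma adjusted p = 0.019, 13.2% of all genes). The 24 h values rest on libraries with unlike factors. Without DKO 24 h replicate 1, whose factor was 2.24, 8 members were called lower, as were 8705 of the 18232 genes tested. Without replicate 2 or either 0 h library the count was 0 members, and between 760 and 1640 genes were called lower.

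Between the genotypes 0 of the 9 members were called at 0, 24 or 72 h on either scale in limma. Spike-in scaled, the shares of all genes called lower and higher in DKO were 0.0165% and 0.0274% at 0 h, 0.0329% and 0.011% after 24 h, and 0.0274% and 0.302% after 72 h. As deposited they were 0.176% and 0.422%, then 0.79% and 0.581%, then 0.845% and 3.17%. At an unadjusted p under 0.05 the count was 0 at 0 h, 0 after 24 h and 1 after 72 h spike-in scaled, and 1, 1 and 0 as deposited. Spike-in scaled, all 9 members had higher means in DKO at 0 h, by a median log2 difference of 0.25 beside 0.29 for all genes, and after 72 h, by 0.46 beside 0.49 for all genes. Without overlap between the libraries, 6 members were higher in DKO at 0 h on this scale (52.9% of all genes), 0 after 24 h and 8 after 72 h (62.6% of all genes), and 0 were lower. As deposited, Hexim1, Nelfa and Supt5 were lower in DKO without overlap at 0 h (16.6% of all genes) and Ccnt1 and Nelfb higher (24.4%). Hexim1 was lower and Nelfb higher in this way after 24 h (18.8% and 21.6% of all genes). After 72 h Hexim1 was the 1 member below WT (15.1%), and Ccnt1, Larp7 and Nelfb were above it (39.3%). Hexim1 was at 27.1 and 28.3 TPM in DKO against 32.1 and 34.4 TPM in WT at 0 h as deposited, a difference of −0.25 that did not pass (limma adjusted p = 0.22).

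The change with mTORi was also compared between the genotypes through an interaction term, and 0 members were called after 24 h or 72 h on either scale (the share of all genes called was 0.00548% lower after 24 h spike-in scaled and 0% otherwise). No member had an unadjusted p under 0.05 in these 4 tests. The precision of these tests was limited. As deposited, the DKO response minus the WT response of Supt5 was 0.07 after 24 h (95% interval −0.28 to 0.41) and 0.29 after 72 h (−0.06 to 0.63), that of Larp7 after 72 h was 0.23 (−0.33 to 0.79), and that of Hexim1 after 72 h was 0.16 (−0.11 to 0.43). The WT and DKO responses do not share libraries, whereas the times within a genotype share the same 0 h pair.

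The partners of the members were taken from lists of related genes. Of the 5 partners in the 7SK, NELF and DSIF complexes (Hexim2, Mepce, Rn7sk, Nelfe, Supt4a), 4 were called lower in WT after 144 h on the spike-in scale, where 50.5% of all genes were, with a list median of −1.02 beside −0.83 for all genes. As deposited, Supt4a, the small subunit of DSIF, was called lower, and Mepce, the capping enzyme of 7SK, was called higher there while lower spike-in scaled (0.34 and −0.67, limma adjusted p = 0.042 and 0.045). Supt4a had 95.7 and 97.3 TPM at 0 h, 74.5 and 75.6 TPM after 24 h, and 70.1 and 70.8 TPM after 144 h as deposited. It was called lower after 24 h (−0.36, limma adjusted p = 0.0053), when Supt5, the gene of its partner, was called higher. Neither call was made spike-in scaled, where Supt4a was at −0.73 (limma adjusted p = 0.098). Rn7sk, the RNA of the particle, had 31013 and 33760 TPM at 0 h, 57770 and 61087 TPM after 24 h, and 42820 and 43484 TPM after 144 h as deposited. Its treated WT libraries were all above the untreated ones, but the log2 difference of 0.88 after 24 h did not pass (limma adjusted p = 0.063), and spike-in scaled Rn7sk was at 0.50 after 24 h and −0.61 after 144 h, with neither called. Rn7sk is a short RNA with many near-copies in the genome, so its level is uncertain.

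Of the 11 genes listed for recruitment of P-TEFb and the super elongation complex, 8 were called lower in WT after 144 h spike-in scaled (50.5% of all genes, list median −0.85). As deposited (11.7% of all genes lower, 15.6% higher) 0 were called lower and 1 higher, Ell3 (0.87, limma adjusted p = 0.016, but 0.01 spike-in scaled), which went from 2.78 and 4.29 TPM to 6.49 and 7.85 TPM. Jmjd6 had the most negative spike-in scaled difference of this list, at −1.35 (limma adjusted p = 0.0019). Of the 9 other kinases, cyclins and phosphatases of the Pol II tail, 6 were lower spike-in scaled (list median −0.86). As deposited 1 was lower and 2 were higher. The phosphatase gene Ssu72 fell from 61.1 and 67.5 TPM to 34.9 and 36.0 TPM (−0.84, limma adjusted p = 0.00024), and the kinase gene Cdk12 rose from 96.3 and 102 TPM to 127 and 129 TPM (0.37, limma adjusted p = 0.0082). The other higher gene was Ccnk, which encodes the cyclin of CDK12. Spike-in scaled both went the other way, Cdk12 at −0.65 (limma adjusted p = 0.065) and Ccnk at −0.71 (limma adjusted p = 0.048), while Ssu72 was at −1.86 (limma adjusted p = 0.00011).

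All 14 genes of the PAF1 complex and of factors that act after pause release were lower in WT after 144 h spike-in scaled (50.5% of all genes, list median −1.13 beside −0.83 for all genes), and 2 as deposited (11.7% of all genes), Eloc and Ssrp1. Eloc, which encodes elongin C, was lowest at −1.68 spike-in scaled (limma adjusted p = 0.00026) and −0.65 as deposited (limma adjusted p = 0.0012), and Supt6 was highest at −0.75 and 0.27. All 12 Pol II subunit genes were lower as well spike-in scaled, again beside 50.5% of all genes (list median −1.29). As deposited, 8 of the 12 were lower and 1 higher after 24 h (14.1% of all genes lower, 15.8% higher), and 3 were lower after 144 h (11.7% of all genes). Polr2a, which encodes the catalytic subunit, had 146 and 165 TPM in WT at 0 h and 204 and 253 TPM after 24 h as deposited (0.55, limma adjusted p = 0.011), the list's only higher gene there. Polr2g had 88.5 and 90.5 TPM at 0 h and 49.2 and 54.3 TPM after 24 h (−0.78, limma adjusted p = 0.00032). After 144 h they were the highest and the lowest of the list. Polr2a was then at 189.8 and 209.7 TPM (0.36 as deposited, limma adjusted p = 0.068, and −0.66 spike-in scaled, limma adjusted p = 0.047) and Polr2g at 52.0 and 54.7 TPM (−0.74, limma adjusted p = 0.00062, and −1.76, limma adjusted p = 0.00028). As deposited Polr2a thus rose beside Supt5 after 24 h in WT, and it did so in DKO (0.99, limma adjusted p = 0.00070), whereas spike-in scaled it was at 0.18 and 0.42, with neither called.

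**Figure D5:**
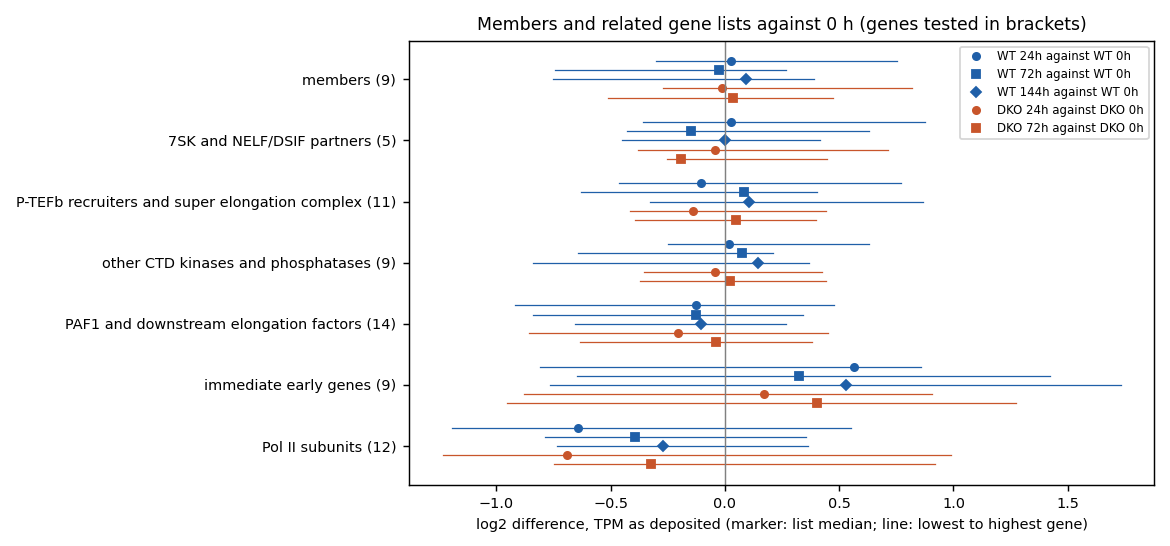
Log2 difference from 0 h in deposited TPM (horizontal axis) for the 9 members and 6 lists of related genes (rows, with the number of genes tested), with a marker for the list median and a line from the lowest to the highest gene for each mTORi time in WT (blue) and DKO (orange). The Pol II subunits sit to the left, with a median of −0.64 in WT after 24 h, while the members' medians stay between −0.03 and 0.09.

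Immediate early genes are textbook targets of pause release, and 9 of the 12 listed had enough signal to be tested. In WT after 144 h 3 were lower and 1 higher spike-in scaled, with a list median of −0.38 beside −0.83 for all genes, of which 50.5% were called lower and 0.461% higher. As deposited 0 were lower and 3 were higher (11.7% and 15.6% of all genes), with a list median of 0.53. Zfp36, which encodes a protein that destabilizes mRNAs, had 4.73 and 5.59 TPM at 0 h and 19.1 and 19.7 TPM after 144 h, and it was called higher on both scales (1.73 as deposited, limma adjusted p = 0.0011, and 0.83 spike-in scaled, limma adjusted p = 0.034). Atf3 was the lowest of the list, at −1.44 spike-in scaled (limma adjusted p = 0.0086) and −0.77 as deposited (limma adjusted p = 0.20), with a mean of 0.327 TPM left after 144 h.

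At the other times the lists are given by their counts, first as deposited. The shares of all genes called lower and higher were 14.1% and 15.8% in WT after 24 h, 11.4% and 12.6% in WT after 72 h, 13.3% and 11.6% in DKO after 24 h, and 9.06% and 17.2% in DKO after 72 h. Of the 5 partners, 1 was lower and 0 higher in WT after 24 h and 72 h and in DKO after 24 h, and 0 were called in DKO after 72 h. Of the 11 recruiters, 1 was lower and 3 were higher in WT after 24 h, 2 and 1 after 72 h, and in DKO 0 and 1 after 24 h and none after 72 h. Of the 9 other tail kinases, cyclins and phosphatases, 0 were lower and 1 higher in WT after 24 h, 1 was lower and 0 higher after 72 h, and 1 went each way at both DKO times. In the PAF1 list of 14, 3 were lower and 0 higher at both WT times, 4 and 0 in DKO after 24 h, and 2 and 2 in DKO after 72 h. Of the 9 immediate early genes, 1 was lower and 3 were higher at both WT times, 1 and 1 in DKO after 24 h, and 1 and 2 in DKO after 72 h. Of the 12 Pol II subunits, 6 were lower and 0 higher in WT after 72 h, 8 and 1 in DKO after 24 h, and 5 and 1 in DKO after 72 h. Spike-in scaled, the counts called lower in WT after 24 h, WT after 72 h, DKO after 24 h and DKO after 72 h, in that order, stood beside 8.73%, 7.6%, 18.7% and 2.95% of all genes. They were 0, 0, 1 and 0 of the partners, 0, 1, 1 and 0 of the recruiters, and 0, 1, 2 and 0 of the other tail kinases, cyclins and phosphatases. In the PAF1 list they were 3, 2, 7 and 0, among the immediate early genes 1, 0, 2 and 1, and among the Pol II subunits 8, 3, 10 and 1. The 1 list gene called higher on this scale at these times was Zfp36 in WT after 72 h, at a log2 difference of 1.09 (0.697% of all genes called higher).

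The genes whose deposited pattern over the 7 group means was most like that of Cdk9, among 8767 genes, were Hist1h4i (Pearson r = 0.952), Hist1h2ab (0.937) and Rpl8 (0.932). Those most like Hexim1 were Mrpl47 (r = 0.987), Gm3608 (0.986) and Eif2b2 (0.982). These are descriptions over 7 points, which share the library scaling.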

How the data were processed

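RNA-seq of 14 libraries (7 groups of 2) was used. Per the labels and the methods, the authors trimmed the reads (cutadapt 2.4), aligned them to mm10 (STAR 2.7.3a in the submitters' processing notes) and quantified them with StringTie 2.0 on GENCODE. The versions in the published methods differ for the last 2 tools. The deposited values are TPM, and they were summed per gene identifier. TPM keep no counts or depth, so the study's count test (DESeq2, by the authors) was not run and limma took its place. Each library was multiplied by its spike-in factor, the median ratio of the study's ERCC-normalized table (the first 1999 entries of it, 1 TPM or more) to the deposited TPM. The table's spike-in step is not described further in the sources used here.

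Values were log2(TPM + 1), so fold changes are on that scale. The 18232 genes averaging 1 or more in spike-in scaled TPM were fitted in limma 3.58.1 (R 4.3.3; 7 groups together, mean-variance trend), and a gene was called where its p, adjusted over all genes by Benjamini-Hochberg, was under 0.05. The same fit was made on deposited TPM. Alternatives were another pseudocount, filters, scaling, samples in the fit, each library left out and replicate blocks. Replicate numbers pair libraries within a genotype: the study's reporting summary says that the time points of a replicate were processed in parallel, and replicate differences correlated over 0.1 in 3 of 3 DKO and 5 of 6 WT pairs of groups. Between genotypes 10 of 12 correlations were below 0.

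The members and lists were chosen with earlier results of these data known. All members are named; of each list, the genes with the lowest and highest difference in WT at 144 h are given with values, and others named (Mepce, Ccnk, Ssrp1) were chosen after their values were seen. The likeness rule used group means of log2(TPM + 1).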

Additional observations from a re-analysis of the deposited data

How the results depend on the processing

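In WT after 144 h the deposited TPM reversed the sign of Cdk9 (0.073), Ccnt1 (0.091), Nelfa (0.099), Nelfcd (0.097) and Supt5 (0.15), with or without the replicate block, and turned that of Ccnt2, which is called at 0.39 with the block only. Median-centring reversed Supt5 there (0.036) and turned Ccnt2 (0.28, not called). Over all comparisons the sign changed in 37 of 90 member values with deposited TPM and in 33 after median-centring. Members called lower in WT at 24, 72 and 144 h numbered 1, 2 and 2 in deposited TPM, after median-centring, and in deposited TPM with the replicate block within each genotype. Members called higher in WT numbered 1 after 24 h under these 3 settings and 1 after 144 h with deposited TPM and the block. In DKO the count of higher members was 1 after 24 h under the 3 settings. In DKO after 72 h, 1 was lower and 1 higher in deposited TPM, 2 were lower after median-centring, and 2 were lower and 2 higher in deposited TPM with the block. In deposited TPM with the block, 17.7%, 15.2% and 15.6% of all genes were called lower in WT at 24, 72 and 144 h. The shares called higher were 19.3% in WT after 24 h, 19.9% in WT after 144 h and 15.3% in DKO after 24 h. In DKO after 72 h, 12.3% of all genes were lower and 23.5% higher. With the replicate block within each genotype on the spike-in scale the lower counts were 1 and 2 in WT at 24 and 72 h, and 5 and 1 in DKO at 24 and 72 h. The fit of the groups compared alone gave 2 in WT after 72 h, added Ccnt2 in WT after 144 h, and gave 0 in DKO after 24 h. The fits with no filter and with no trend also gave 0 in DKO after 24 h, and with no filter Nelfa was not called in WT after 144 h (adjusted p = 0.056 in limma). For these fits, the fit of the groups compared alone and median-centring, the shares of all genes called are not given here. Those member counts therefore cannot be set beside the whole set of genes. The block within genotypes gives no value between them. The block across all 14 libraries, a pseudocount of 0.1 and a minimum mean of 5 TPM changed no call of a member. Leaving out a library gave between 0 and 1 lower members in WT after 72 h, between 2 and 6 in WT after 144 h, and between 0 and 8 in DKO after 24 h, with the lone library assumed to vary like the other groups; the cause was not tested. Among the deposited-scale values with a library left out, 18 of the calls were lost and 2 gained, and 412 kept their side of the threshold. TPM keep no depth, and with 2 libraries a group the p-values measure the spread between these libraries only. Spike-in factors step by between 1.32% and 3.70%, which bounds how finely the common fall is known.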
